A study of Mus musculus with 9 samples.

Results

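The genes described here encode SUMO modifiers and the enzymes that attach and remove them, followed on 9 hippocampal arrays of SAMP10 mice. They are Sumo2, Sumo3, Sae1, Uba2, Pias1, Senp1, Senp2 and Senp6, and were taken as every probe set of the deposited value table whose single gene symbol in the platform annotation was one of these names and that held no exact 0 on any array. That gave 10 probe sets for 7 of the 8 genes, of 21959 tested probe sets in all. Sumo2 had 4 of them and the other 6 genes had 1 each. No probe set carried Uba2 alone, which was therefore not analysed here, and 0 of the 10 probe sets were lost to an exact 0. The set was chosen by the green soybean and control scores of Sumo2, which was picked because it was lower with green soybean, so every green soybean versus control value of these genes is given as a description with no test.

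The mice were males of the senescence-accelerated strain SAMP10/TaSlc. The groups were green soybean (3 arrays) and yellow soybean (3 arrays), for which 3.0% of the named extract was mixed into CE-2 chow from 1 to 12 months of age, and the control diet (3 arrays). The treatment text of the labels is identical for all 9 arrays, controls included, so the control diet is known by its name only, and the sample titles carry SMP30 where the strain label gives SAMP10. The study had 5 groups of 12 animals, kept 6 per cage according to the labels' protocols. The labels do not say whether an array held 1 mouse or a pool or which cage it came from, so p-values measure only the spread between these arrays, which may be technical, and cage and diet cannot be told apart. All 7 marker genes of hippocampal neurons that were looked up, among them Prox1 of dentate granule cells and Wfs1 of pyramidal cells, lay above the median score of the tested probe sets. The 3 tested striatal and 3 tested thalamic markers all did so too, so this does not tell the regions apart.

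SUMO proteins are small relatives of ubiquitin that are joined to lysines of other proteins, mostly in the nucleus. A heterodimer of Sae1 and Uba2 activates them, ligases of the PIAS family help choose the substrate, and SENP proteases both mature the precursors and take SUMO off again. Sumo2 and Sumo3 are close relatives that form chains, and in the brain SUMO conjugation is known to respond to ischaemia and other stress and to act on synaptic and nuclear proteins.

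All values are the authors' normalized score, a z-type value per probe set and array. If the logarithm behind it has base 10, which the sources used here do not state, 0.1 unit is about 1.18-fold. Scores of different probe sets are compared with each other only as lying above or below the median. In bulk tissue, fewer cells of a type and less RNA per cell cannot be told apart.

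Sumo2 has a single entry in the promoter table, from RefSeq (GRCm38.p6). Its window runs from 250 bases before to 50 bases after the start of the gene, at chr11:115536181-115536480 on the minus strand. It is printed because the 4 probe sets that carry the name of this gene disagreed with each other, and this is the locus from which its own transcript starts. Capitals mark matches on either strand to the GC box, with letters GGGCGG, and to the nuclear factor Y box, spelled out after the sequence, which do not overlap here.
Sumo2: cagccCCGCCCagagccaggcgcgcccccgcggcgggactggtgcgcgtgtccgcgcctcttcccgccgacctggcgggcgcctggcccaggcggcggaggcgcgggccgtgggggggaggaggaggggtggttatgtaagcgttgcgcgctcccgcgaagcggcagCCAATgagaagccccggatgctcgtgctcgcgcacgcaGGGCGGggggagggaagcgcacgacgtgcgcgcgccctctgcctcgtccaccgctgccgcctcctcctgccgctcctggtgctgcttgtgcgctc

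The Sumo2 window held 2 GC boxes and 1 match to the nuclear factor Y box, whose letters are CCAAT. It held no match to the promoter motif with letters TATAAA. Over all 32851 windows of that length, and on either strand, 35.7% held the first of these motifs, 37.4% the second and 13.6% the last. Of the 7 SUMO genes in the table, 6 had a GC box in at least 1 window and 1, Sumo2, had a nuclear factor Y box. Counted by window, as the percentages are, 7 of their 10 windows held a GC box and 1 a nuclear factor Y box. Sae1 was not matched. These matches describe the letters of the windows only.

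The 4 Sumo2 probe sets went in different directions with green soybean. Differences from control of both signs were found in 18 of the 25 genes with 4 tested probe sets, Sumo2 included. Of the Sumo2 probe sets, only 10353219 was lower than in controls. Its scores were 1.08, 1.23 and 1.09 with green soybean, 1.31, 1.32 and 1.22 with yellow soybean and 1.40, 1.34 and 1.57 in controls. The 3 green soybean arrays lay below the 3 controls and so did the 3 yellow soybean arrays, while green and yellow soybean overlapped, green soybean array 2 lying just above yellow soybean array 3. The means were 1.13 ± 0.0851 with green soybean, 1.29 ± 0.0561 with yellow soybean and 1.44 ± 0.121 in controls (SD, n = 3 each). The difference from controls was -0.306 ± 0.0691 (SE) for green soybean and -0.151 ± 0.0691 for yellow soybean, and green minus yellow soybean was -0.156 ± 0.0691. Without control array 3, the highest of the 9, yellow minus control was -0.0827 and green minus control -0.238. All 3 are descriptions, since the choice of Sumo2 used the green soybean and control arrays. Of the 21959 tested probe sets, 43 had a lower green minus control difference.

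Probe set 10392947 scored 2.20, 2.07 and 2.03 with green soybean, 1.89, 1.85 and 2.15 with yellow soybean and 2.04, 1.96 and 1.93 in controls. Here the green soybean mean was the highest, though its lowest array lay below control array 1. The green minus control difference was 0.123 ± 0.0780 (SE), opposite in sign to that of 10353219. It was 0.0747 without green soybean array 1 and 0.0724 with array medians aligned. Yellow minus control was -0.0117 ± 0.0780 and green minus yellow 0.134 ± 0.0780.

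Probe set 10484351 scored 1.97, 2.15 and 2.26 with green soybean, 2.11, 1.64 and 2.20 with yellow soybean and 1.69, 2.14 and 2.09 in controls. Probe set 10520124 scored 2.15, 2.20 and 2.43 with green soybean, 2.17, 1.86 and 2.29 with yellow soybean and 1.95, 2.22 and 2.29 in controls. In both, control array 1 and yellow soybean array 2 were the lowest 2 arrays and the diets overlapped. Their green minus control differences were 0.150 ± 0.146 (SE) and 0.104 ± 0.117, close to their errors. Without green soybean array 3 these became 0.0840 and 0.0192, and without control array 1 they became 0.00957 and 0.000529.

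**Figure D1:**
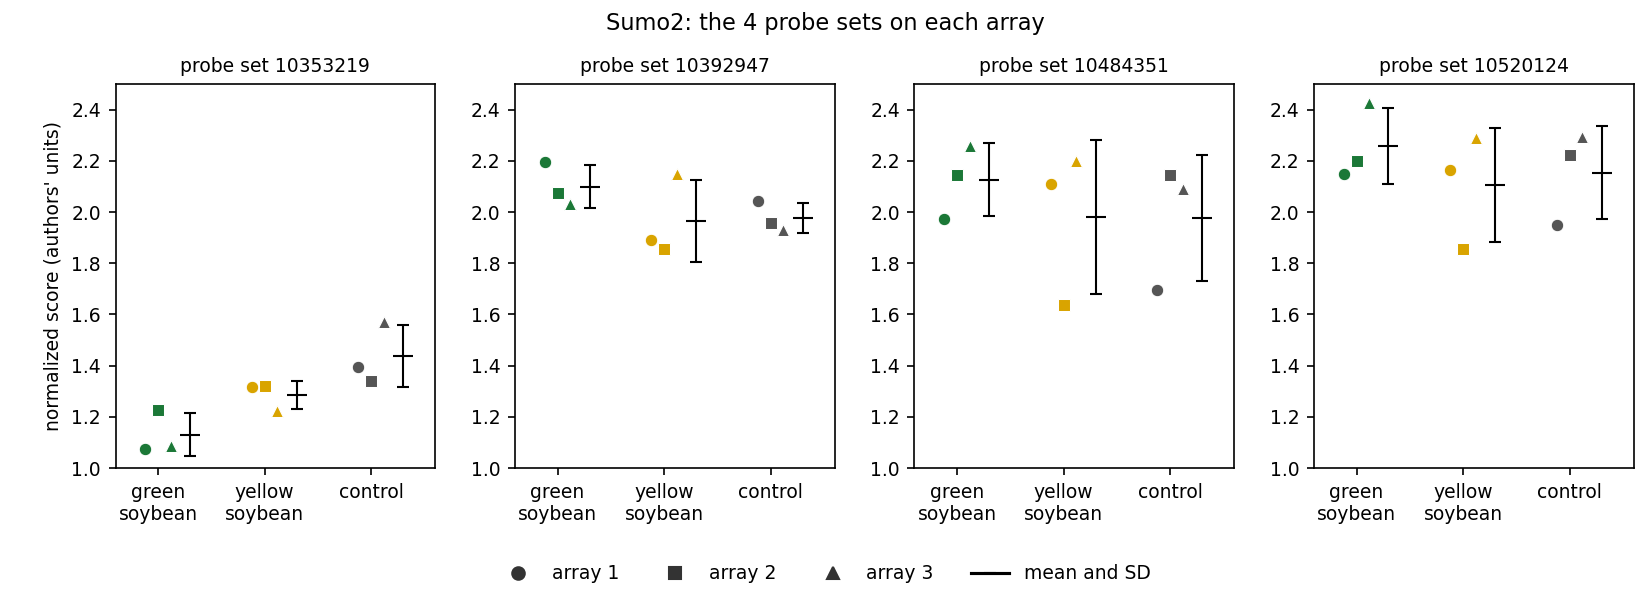
Normalized score (vertical axis, authors' units) of the 4 Sumo2 probe sets on the green soybean, yellow soybean and control arrays, with 1 symbol per array and the mean and SD of 3 arrays beside them. In 10353219 the green soybean arrays lie at 1.08 to 1.23, below the controls at 1.34 to 1.57, while in the other 3 probe sets green soybean and control arrays overlap.

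The average of the 4 probe sets named Sumo2 was 1.90 ± 0.0515 with green soybean, 1.83 ± 0.152 with yellow soybean and 1.89 ± 0.104 in controls (SD, n = 3 each). It is an average of probe sets and not the score of a known transcript, since what each detects was not tested. The green minus control difference of that average was 0.0177, against -0.306 for 10353219 alone. Over the 3 probe sets other than 10353219 it was 0.126. The distance between the highest and the lowest green minus control difference of Sumo2's probe sets was 0.457. That distance includes the difference for which Sumo2 was picked.

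Across the 9 arrays, 10484351 and 10520124 followed each other, with Pearson's r = 0.951 and Spearman's rho = 0.817. Without the 2 arrays farthest from the median, yellow soybean array 2 and control array 1, r was 0.778. The other 5 pairs of Sumo2 probe sets had r between -0.610 and 0.301, and the 3 that involve 10353219 were negative. For deviations from the diet means, those 3 were -0.500 with 10392947, -0.0518 with 10484351 and -0.0570 with 10520124. Without control array 3 and green soybean array 1, the 2 farthest from the median of 10353219, they were -0.400, -0.681 and -0.780. All 6 pairs are descriptions with no test, since these arrays served to pick Sumo2.

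The annotation lists the same 5 accessions for all 4 probe sets, and so does not separate them. Probe set numbers on this platform run along the chromosomes: of 21610 named probe sets checked, 97.1% lay on the chromosome most frequent among the 10 nearest named ones. Sumo2 lies on chromosome 11 in RefSeq (GRCm38.p6). The 10 nearest named probe sets of 10392947 were all genes of chromosome 11, with Jpt1 before it and Gga3 after it. For 10353219 all 10 were genes of chromosome 1, with Msc, a transcription factor gene, before it and Trpa1, an ion channel gene, after it. Between Msc and Trpa1 that assembly lists Smt3h2-ps4, a pseudogene whose name carries Smt3h2, a synonym of Sumo2. For 10484351, 9 of 10 were on chromosome 2, and for 10520124 all 10 were on chromosome 5. Between Nupl2 and Nos3, the neighbours of 10520124, the same search found no entry with Smt3 or Sumo in its name or synonyms. It was not made for 10484351, whose neighbours Nckap1 and Rps4x lie on chromosomes 2 and X. The single probe sets of the other 6 genes had the gene's own chromosome as the most frequent one. Which sequence each Sumo2 probe set detects is not given in the sources used here and was not tested.

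By a rule on correlation over the 9 arrays, the genes most like 10353219 among 16751 named probe sets were Dnajc13, an endosomal co-chaperone (r = 0.961), Zranb2, a splicing factor (0.944), Lztfl1, a regulator of ciliary trafficking (0.940), Kdm3a, a histone demethylase (0.932), and Cdh11, a cadherin (0.930). Those running most opposite were BC048507 (r = -0.981), Nelfe, a subunit of the negative elongation factor (-0.966), Ptpn3, a tyrosine phosphatase (-0.966), Snhg17, a small nucleolar RNA host gene (-0.962), and Stap2, a signalling adaptor (-0.961). Dnajc13, BC048507 and Stap2 had mean scores below the median of the tested probe sets, and the rest lay above it. The 9 arrays carry the diet difference for which Sumo2 was picked, so these correlations are descriptions with no test.

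Sumo3, whose product forms chains with that of Sumo2, scored 0.623, 0.849 and 0.681 with green soybean, 0.863, 0.695 and 0.685 with yellow soybean and 0.662, 0.729 and 0.722 in controls. The 3 diets overlapped throughout. Its differences were 0.0132 for green minus control, 0.0432 for yellow minus control and -0.0301 for green minus yellow soybean, each with an SE of 0.0693. The 95% interval of the yellow minus control difference ran from -0.108 to 0.194.

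Among the enzymes, Sae1, the activating-enzyme subunit that pairs with Uba2, scored 0.920, 0.770 and 0.579 with green soybean, 0.697, 0.856 and 0.909 with yellow soybean and 0.755, 0.762 and 0.902 in controls. The green soybean arrays held both the highest and the lowest of the 9 scores. Green minus control was -0.0500 ± 0.0861 (SE), yellow minus control 0.0141 and green minus yellow -0.0641.

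Pias1, a SUMO ligase of nuclear proteins, scored 1.33, 1.33 and 1.12 with green soybean, 1.32, 1.35 and 1.24 with yellow soybean and 1.35, 1.35 and 1.36 in controls. The controls were tightly grouped, at 1.36 ± 0.00533 (SD, n = 3), and all arrays of both soybean diets lay below them. The gap was small in most arrays, and the difference from controls was -0.0954 ± 0.0626 (SE) for green and -0.0549 ± 0.0626 for yellow soybean. Without green soybean array 3 the green minus control difference was -0.0262.

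Of the SENP proteases, Senp6, which trims chains of SUMO, scored 0.942, 0.822 and 0.446 with green soybean, 0.910, 0.846 and 0.868 with yellow soybean and 0.883, 0.824 and 0.875 in controls. Green soybean array 3 stood 0.376 below the next lowest array, and the other 8 arrays lay within 0.822 to 0.942. Green minus control was -0.124 ± 0.0986 (SE), and 0.0210 without that array.

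Senp1, which matures and removes SUMO in the nucleus, scored 0.326, 0.285 and 0.107 with green soybean, 0.346, 0.373 and 0.243 with yellow soybean and 0.303, 0.309 and 0.320 in controls. The controls were tightly grouped here too, and both soybean diets spread around them. Green minus control was -0.0713 ± 0.0634 (SE), and -0.00533 without green soybean array 3.

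Senp2, a SENP protease associated with the nuclear pore, scored 0.616, 0.698 and 0.571 with green soybean, 0.704, 0.696 and 0.592 with yellow soybean and 0.573, 0.612 and 0.671 in controls. Green soybean array 3 and control array 1 were almost level as the lowest of the 9. Green minus control was 0.00936 ± 0.0561 (SE) and yellow minus control 0.0452 ± 0.0561.

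**Figure D2:**
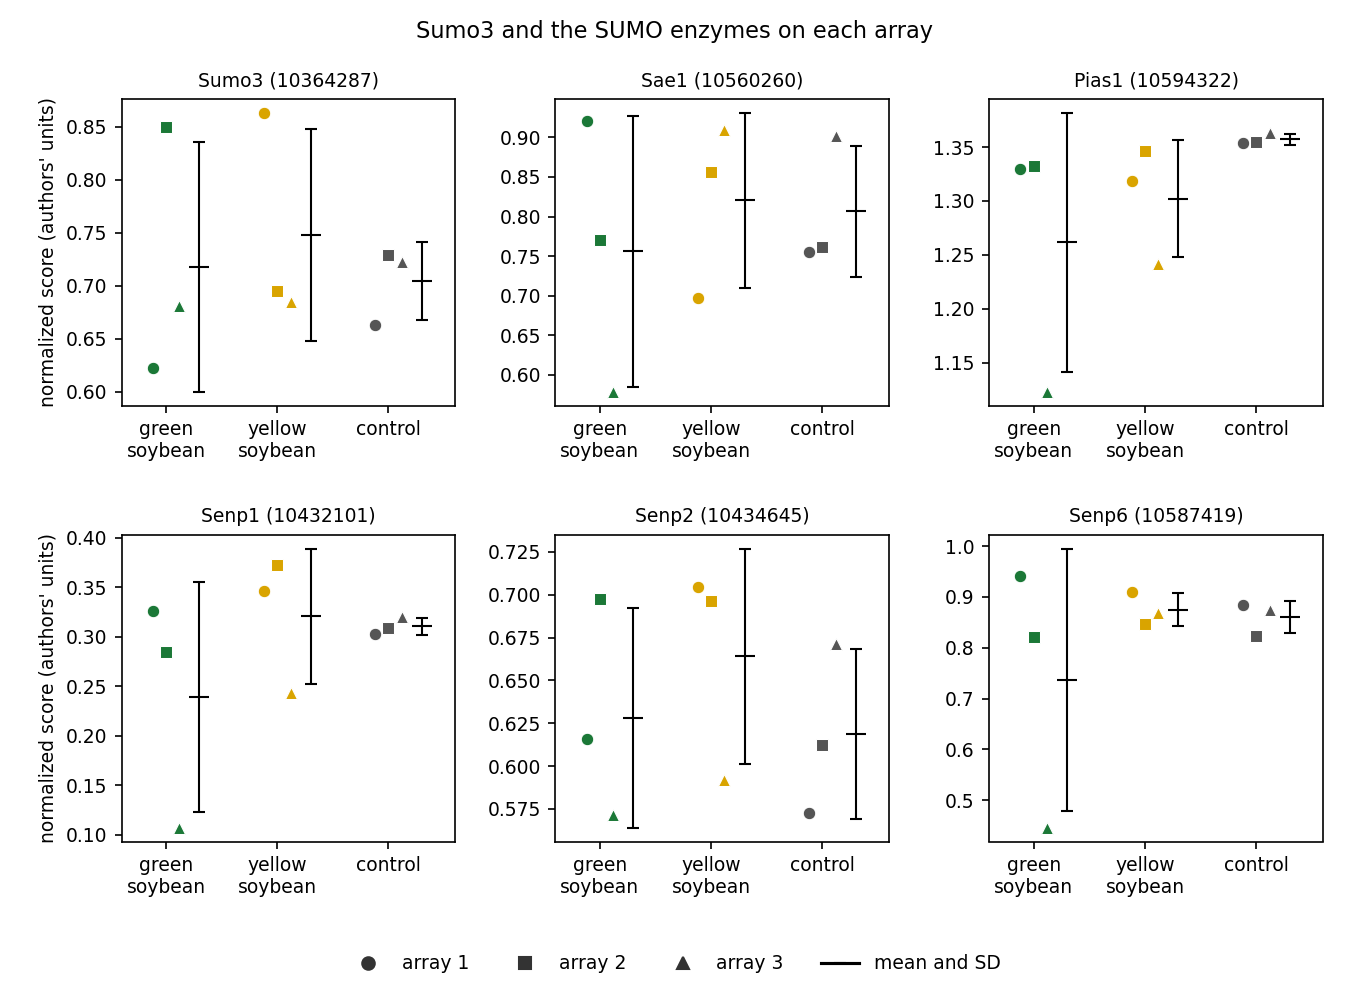
Normalized score (vertical axis, authors' units, a different range in each panel) of Sumo3 and of 5 SUMO enzymes on the green soybean, yellow soybean and control arrays, with 1 symbol per array and the mean and SD of 3 arrays. Green soybean array 3 (triangle) is the lowest of the 9 arrays for Sae1, Pias1, Senp1, Senp2 and Senp6.

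Green soybean array 3 was the lowest of the 9 arrays for all 5 enzyme probe sets, Sae1, Pias1, Senp1, Senp2 and Senp6. Over all tested probe sets it was the lowest in 23.4% and the highest in 24.7%, and among the 10980 with a score at or above the median it was the lowest in 35.3%. It also stood apart as a whole, with a mean correlation of 0.958 with the other 8 arrays, against 0.977 to 0.981 for the others. For 10484351 and 10520124 of Sumo2 it was the highest array. Of the 23 uncentred probe sets of other SUMO pathway genes, it was the lowest in 7 and the highest in 4.

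Marker scores moved on the same array. The 7 hippocampal neuron markers summed to 6.17 on it, against 7.15 to 7.85 on the other 8, and it was the lowest array for 4 of the 7. The 4 oligodendrocyte markers summed to 4.19, against 4.70 to 5.97, with 3 of 4 lowest on it. Its sums were also below the others for 5 astrocyte markers (5.56, against 5.74 to 6.18), 3 endothelial markers (0.777, against 0.912 to 1.34) and 3 striatal markers (0.786, against 0.800 to 1.16). Marker by marker, it was the lowest array for 1 of the 5, 1 of the 3 and 2 of the 3. The array was above the others in the sum of 2 leptomeningeal markers (1.42, against 0.220 to 0.981), with 1 of the 2 highest on it. For 1 blood marker it was also above them (-0.118, against -0.359 to -0.168). For the pan-neuronal, microglial, choroid plexus and thalamic markers it lay within the range of the others, the 4 pan-neuronal ones at 8.55 against 8.15 to 8.73. The part of these shifts in the enzyme scores was not tested.

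**Figure D3:**
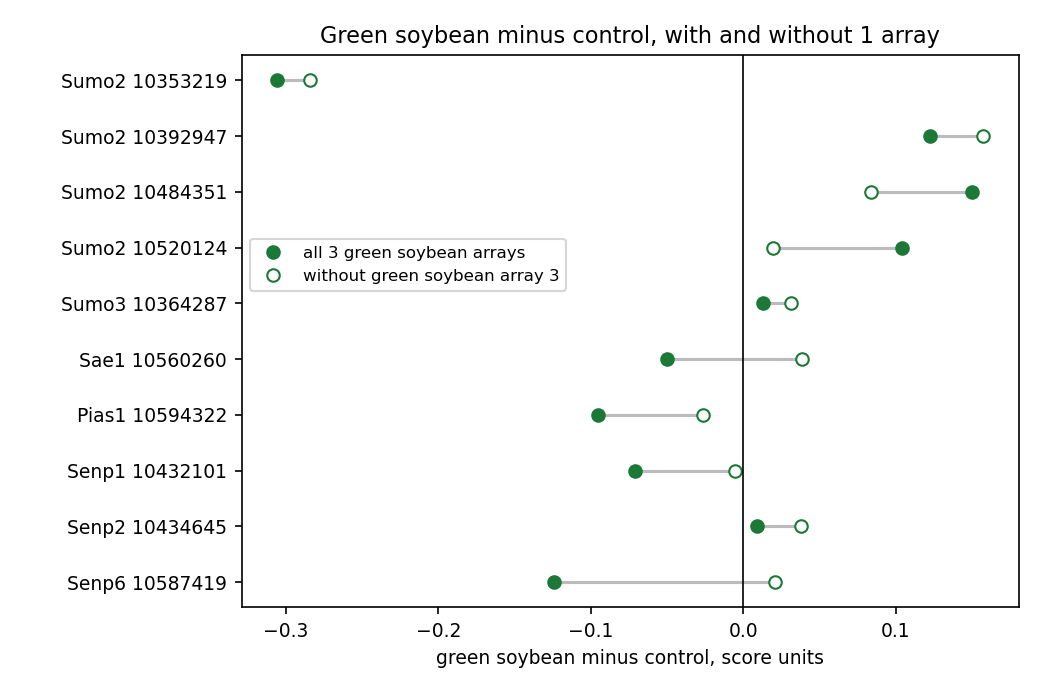
Difference between green soybean and control in score units (horizontal axis) for each SUMO probe set, with all 3 green soybean arrays (filled) and without green soybean array 3 (open). Senp6 moves to 0.0210, against -0.124 with all arrays, and Sae1 to 0.0388, against -0.0500, while Sumo2 10353219 stays at -0.284, against -0.306.

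Set side by side, green minus control was above 0 in 5 of the 10 SUMO probe sets and below 0 in 5, with a median of -0.0203, where 65% of all tested probe sets were above 0 and their median was 0.0296. With array medians aligned the median of all tested turned to -0.0205, with 39.4% above 0, and 3 of the 10 SUMO probe sets, all of Sumo2, were above 0. Over all tested probe sets limma called 0% at an adjusted p below 0.05 and 9.72% had an unadjusted p below 0.05. Green soybean and control arrays did not overlap in 2 of 10, 10353219 and Pias1, both lower, against 15.9% of all tested probe sets and 2.67% for lower alone. Nothing is read from these counts, since the choice used this comparison.

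For yellow soybean versus control, which shares the control arrays, 6 of the 10 differences were above 0 and 4 below, with a median of 0.00801. Over all tested probe sets 60.4% were above 0 and the median was 0.0140. With array medians aligned 2 of the 10 were above 0, against 39% of all tested, whose median was then -0.0149. With quantile normalization 3 of the 10 were above 0, against 49.5% of all tested. Of the 9 probe sets other than 10353219, limma called 0 (0% of all tested), each with an adjusted p of 1.00, and 0 had an unadjusted p below 0.05, where 3.04% of all tested did. The yellow soybean arrays lay below the controls in 2 of 10, 10353219 and Pias1, where 9.3% of all tested did not overlap and 2.65% for lower alone. The controls here are the arrays that green soybean was set against.

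For green versus yellow soybean, 3 of the 10 differences were above 0, all of them Sumo2, and 7 below, with a median of -0.0382 (58% above 0 and a median of 0.0147 over all tested). With array medians aligned 46.6% of all tested were above 0, and again 3 of the 10. Of the 9 probe sets other than 10353219, limma called 0 (0% of all tested), with adjusted p from 0.762 to 0.947, and 0 had an unadjusted p below 0.05, where 7.1% of all tested did. The arrays overlapped in all 10, where 10.6% of all tested did not and 2.92% for lower alone. Among the other 9 the highest difference was that of Sumo2 10520124, at 0.154 with a 95% interval from -0.102 to 0.410, and the lowest that of Senp6, at -0.138 with an interval from -0.353 to 0.0769. Without green soybean array 3 they became 0.0696 and 0.00686. The green soybean arrays here are also those by which Sumo2 was picked, so these p-values are not independent of that choice.

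**Figure D4:**
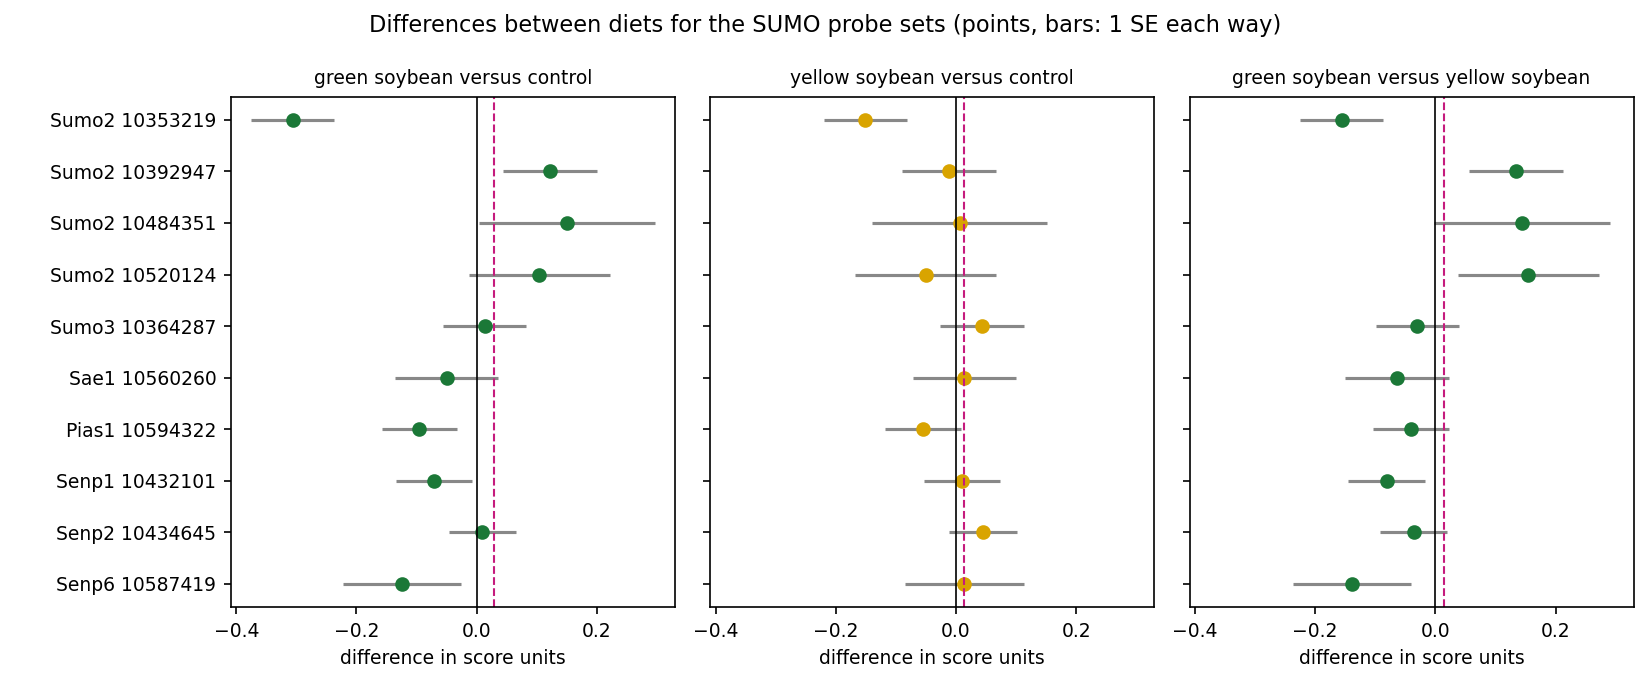
Difference in score units (horizontal axis) of each SUMO probe set for green soybean versus control, yellow soybean versus control and green versus yellow soybean, with bars of 1 SE each way and a dashed line at the median of all tested probe sets (0.0296, 0.0140 and 0.0147). Sumo2 10353219 lies furthest below 0 in all 3 panels, while the other Sumo2 probe sets lie above 0 in the panels that involve green soybean.

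The other genes of the pathway were followed as a list of 26, of which 23 had a tested probe set (25 in all). The rest were not analysed here. With green soybean 15 of the 25 were above control and 10 below, with a median of 0.0318. Over all tested 65% were above 0. Here limma called 0, and 0 had an unadjusted p below 0.05, where 9.72% of all tested did. The largest were Desi2, a relative of deSUMOylating isopeptidases, at -0.135 ± 0.0675 (SE), Nsmce2, a SUMO ligase of a chromosome maintenance complex, at 0.0935, and Uspl1, a SUMO isopeptidase of Cajal bodies, at -0.0821. Without green soybean array 3 these were -0.0842 for Desi2, 0.00696 for Nsmce2 and -0.0487 for Uspl1, and without control array 3 Nsmce2 was 0.0491 and Uspl1 -0.0505. The green soybean arrays lay wholly below the controls for Desi2 and Uspl1 and wholly above them for Pias3 and Zfp451, 4 of 25 where 15.9% of all tested did not overlap. With array medians aligned 6 of the 25 were above control, against 39.4% of all tested. Pias3 and Zfp451, both SUMO ligases, were named after their values were seen.

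With yellow soybean 18 of the 25 were above control and 7 below, with a median of 0.0201. Over all tested 60.4% were above 0. Here limma called 0, and 0 had an unadjusted p below 0.05, where 3.04% of all tested did. The largest was 1 of the 3 probe sets of Zmiz1, a PIAS-like coactivator, at 0.120 ± 0.0831 (SE). The others of that gene stood at 0.0201 and 0.0646. Next came Desi1, a deSUMOylating isopeptidase, at 0.120 ± 0.113, and Daxx, a SUMO-binding histone chaperone, at -0.0809 ± 0.0481. With array medians aligned 10 of the 25 were above control, against 39% of all tested. Without yellow soybean array 1 the largest Zmiz1 difference became 0.0708 and that of Desi1 0.0348. Between green and yellow soybean 11 were above and 14 below 0, with a median of -0.00938, where 58% of all tested were above 0. Daxx was the single probe set of the 25 at a limma unadjusted p below 0.05, where 7.1% of all tested were. Its means were 0.130 with green and 0.0118 with yellow soybean, a difference of 0.119 ± 0.0481 (SE) with a limma adjusted p of 0.682. The green soybean arrays of Daxx lay wholly above the yellow ones, and so did those of Topors, at 0.130 ± 0.0805. These were the 2 of 25 that did not overlap, against 10.6% of all tested. Topors was named after its values were seen.

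Other ubiquitin-like modifiers served as neighbours of the SUMO proteins, with 7 tested probe sets for 6 of 12 listed genes. With green soybean 5 were above control and 2 below, where 65% of all tested were above 0. In each comparison limma called 0 of the 7 (0% of all tested), and 0 had an unadjusted p below 0.05. Of all tested, 9.72% had such a p for green minus control. The shares were 3.04% for yellow minus control and 7.1% for green minus yellow soybean. The largest green minus control differences were those of Ufm1, the modifier of ufmylation, at 0.0997, and of both probe sets of Fau, a ribosomal protein made as a ubiquitin-like fusion, at 0.0981 and 0.0963. Aligning array medians took these to 0.0496, 0.0480 and 0.0462. For yellow soybean all 7 were above control, where 60.4% of all tested were. With array medians aligned 2 of 7 were (39% of all tested), and with quantile normalization 3 of 7 (49.5%). The largest was Atg12, an autophagy modifier, at 0.0974 ± 0.0668 (SE), with Fau at 0.0550 and 0.0210. Ubl5 stood at 4.63e-05 and Ufm1, Nedd8 and Urm1 at 0.00773, 0.00981 and 0.0105, each below its SE. Between green and yellow soybean Ufm1 stood at 0.0920, Ubl5, a splicing-associated relative of ubiquitin, at -0.0774 and Fau 10460726 at 0.0753. Without green soybean array 3 Ubl5 was 0.0168.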

How the data were processed

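Hippocampal RNA was measured on 9 one-colour Affymetrix arrays, 3 for each of 3 diets, grouped by the sample titles. Each value is a score that the authors made with the SuperNORM data service, per the labels, and deposited for every probe set. Its scale parameter has a median of 0.705 in a deposited table whose array names match no label, and 9 value columns under such names were not used. The 6573 control-type probe sets and the 6228 others with an exact 0 on any array were left out, which left 21959. The test was limma (version 3.58.1, under R 4.3.3), with eBayes and no intensity trend, in 1 model over the 9 arrays, two-sided, with Benjamini-Hochberg adjustment over all probe sets and calls at an adjusted p below 0.05. The fit was tested on simulated data. The number of arrays limits the precision, with a median SE of a difference of 0.0632 units.

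The members and lists were chosen with earlier results of these data known. All members were named. Other pathway genes and modifiers were named at an unadjusted p below 0.05, otherwise the 3 probe sets with the largest difference per comparison, and likeness was the 5 highest and 5 lowest correlations with 10353219. The average over the Sumo2 probe sets was added after the data were seen. Sequences are from RefSeq (GRCm38.p6), and probe sets were named by the platform annotation. Alternatives changed the scaling between arrays, the variance model, the filter, the arrays in the fit and the replicate block.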

Additional observations from a re-analysis of the deposited data

How the results depend on the processing

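The number of probe sets called was 0 in each comparison and became 1, Nfu1, which is no SUMO gene, for green soybean versus control with array weights and without green soybean array 3, and for green versus yellow soybean without that array (0 to 1 over the arrays left out in turn, in both comparisons). Of the SUMO probe sets other than 10353219, none was called under any alternative run of yellow soybean versus control or green versus yellow soybean. Averaged over the 4 Sumo2 probe sets, a choice made after seeing the data, green minus control was 0.0177. That of 10353219 alone ran from -0.355 to -0.238 as single arrays were left out. At an unadjusted p below 0.05 there were 2134, 667 and 1559 probe sets for green versus control, yellow versus control and green versus yellow soybean, against 549, 166 and 330 of the 10980 at or above the median score. Yellow versus control gave 1091 with array weights and 1059 without yellow soybean array 2. Replicate numbers did not pair the arrays (correlations of same-numbered deviations from -0.0877 to 0.164), and with the replicate block these counts were 2157, 688 and 1604, with 0 called and -0.306 for Sumo2 10353219.

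Small differences changed sign, and the cause was not tested. For green minus control, aligning array medians gave -0.0369 for Sumo3 and -0.0407 for Senp2, array weights gave 0.00520 for Sae1, leaving out green soybean array 2 gave -0.0527 for Sumo3 and -0.0254 for Senp2, leaving out control array 1 gave -0.00781 for Sumo3 and -0.0137 for Senp2, and leaving out green soybean array 3 gave 0.0388 for Sae1 and 0.0210 for Senp6. For yellow minus control, aligning array medians gave -0.0228 for Sumo2 10484351, -0.0149 for Sae1, -0.0191 for Senp1, -0.0148 for Senp6 and -0.00794 for Fau 10460726. Quantile normalization gave -0.00280 for Sumo2 10484351, -0.00769 for Senp1 and -0.00181 for Senp6, and array weights gave -0.0418 for Sumo2 10484351. For green minus yellow soybean, array weights gave 0.00139 for Sumo3 and 0.0254 for Ubl5. With single arrays left out, yellow minus control ran from -0.104 to 0.0437 for Sumo2 10392947, -0.135 to 0.178 for 10484351, -0.154 to 0.0731 for 10520124, -0.0144 to 0.0746 for Sumo3, -0.0301 to 0.0759 for Sae1, -0.0161 to 0.0487 for Senp1, -0.00422 to 0.0286 for Senp6 and -0.0405 to 0.0604 for Fau 10460726. Green minus yellow ran from -0.0275 to 0.252 for Sumo2 10484351, -0.0959 to 0.0275 for Sumo3, -0.146 to 0.0247 for Sae1, -0.0758 to 0.0287 for Pias1, -0.241 to 0.00686 for Senp6 and -0.186 to 0.0168 for Ubl5.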
